A study of Mus musculus with 6 samples.

Results

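The genes described here are 45 factors that assemble the mitochondrial respiratory chain, taken by symbol from the 56980 genes of a deposited table on mouse ovary. They are helpers of assembly, not subunits of the finished complexes, and each symbol matched 1 row. RNA was measured in 6 ovary libraries from ICR mice. The 3 FNZ libraries (replicates 2, 3 and 5) came from mice injected into the peritoneum each day for 7 days with 30 mg/kg FNZ, a compound that the labels give only by these letters and whose solvent was 50% polyethylene glycol 400 and 50% saline. The 3 control libraries (replicates 2, 3 and 4) came from mice injected with the solvent, also labelled 7 days. The labels mention 3 dissected ovaries per group, give no age, and do not say whether the ovaries came from separate mice, so p-values measure the spread between these samples, which may be technical. The study's title concerns the blocking of T-type calcium channels and its effect on mitochondria and follicles.

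The respiratory chain passes electrons from NADH (complex I) and succinate (complex II) through complex III to oxygen at complex IV, and ATP synthase uses the proton gradient so built. Each complex is put together in steps by dedicated factors that insert iron-sulphur clusters, flavin, heme or copper, or that hold partly built modules until partners arrive. In the ovary, mitochondria serve the growing oocyte and carry the entry step of steroid synthesis in theca and luteal cells.

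Expected counts, which the authors deposited, summed to between 19333493 and 23406628 per library. Ovarian markers were present (all 10 granulosa and all 10 oocyte markers passed the filter on low counts). In FNZ replicate 3 the deviation of a gene from its mean over libraries was hardly related to gene length (Spearman's rho across genes 0.082), whereas it ran against length in FNZ replicates 2 and 5 (-0.46 and -0.30) and with length in the controls (0.26 to 0.32). Control replicate 4 held 649.8 CPM (counts scaled to library size with edgeR's TMM factors) of 6 oviduct epithelium markers, against 9.87 to 47.2 CPM in the FNZ libraries and 7.46 and 15.3 CPM in the other controls. Results are therefore given with and without FNZ replicate 3, and for the members as a whole without control replicate 4. In all lists of values below, FNZ libraries stand in the order of replicates 2, 3 and 5 and control libraries in the order of replicates 2, 3 and 4.

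Assembly factors as a whole lay somewhat higher with FNZ, and unevenly so. Cox16, Uqcc2, Pet100, Cox20 and Coa6, of complexes III and IV, had the highest log2 fold changes of single members (0.82 to 0.91). By complex, the medians were 0.16 (complex I), 0.49 (complex II), 0.22 (complex III), 0.26 (complex IV) and 0.086 (ATP synthase). Of 44 members that passed the filter (all but Pet117), 33 had a positive log2 fold change, a share of 75% where 51.2% of all tested genes did. The median was 0.25 against 0.011 over all 17735 tested genes, and members ranged from -0.67 (Lyrm7) to 0.91 (Cox16). The groups did not overlap in 23 members, where 29.6% of tested genes had no overlap. Of these, 19 (43.2% of members) were higher in all FNZ libraries, against 15.8% of tested genes, and 4 (9.09%) were lower in all of them, against 13.8% of tested genes. No member passed edgeR's quasi-likelihood test at a Benjamini-Hochberg adjusted p under 0.05, as 0 of 17735 genes did (0% in either direction), and the smallest adjusted p among members was 0.131. At an unadjusted p under 0.05 there were 15 members higher and 1 lower, against 12% and 11.2% of all tested genes. None of these values is corrected for gene length. Shorter genes in general lay higher with FNZ, and members are shorter than tested genes in general (below). With a correction for listed length, Cox16, Uqcc2, Pet100, Cox20 and Coa6 were at 0.48 to 0.82. With the length that counts and TPM imply (below), they were at 0.48 to 0.59, with Cox16 at 0.59 and Pet100 at 0.49. The medians corrected for listed length were 0.13 for members and 0.030 for all tested genes, and those corrected for implied length 0.085 and 0.028. Of 44 members, 26 were above the uncorrected median of their length bin.

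**Figure D1:**
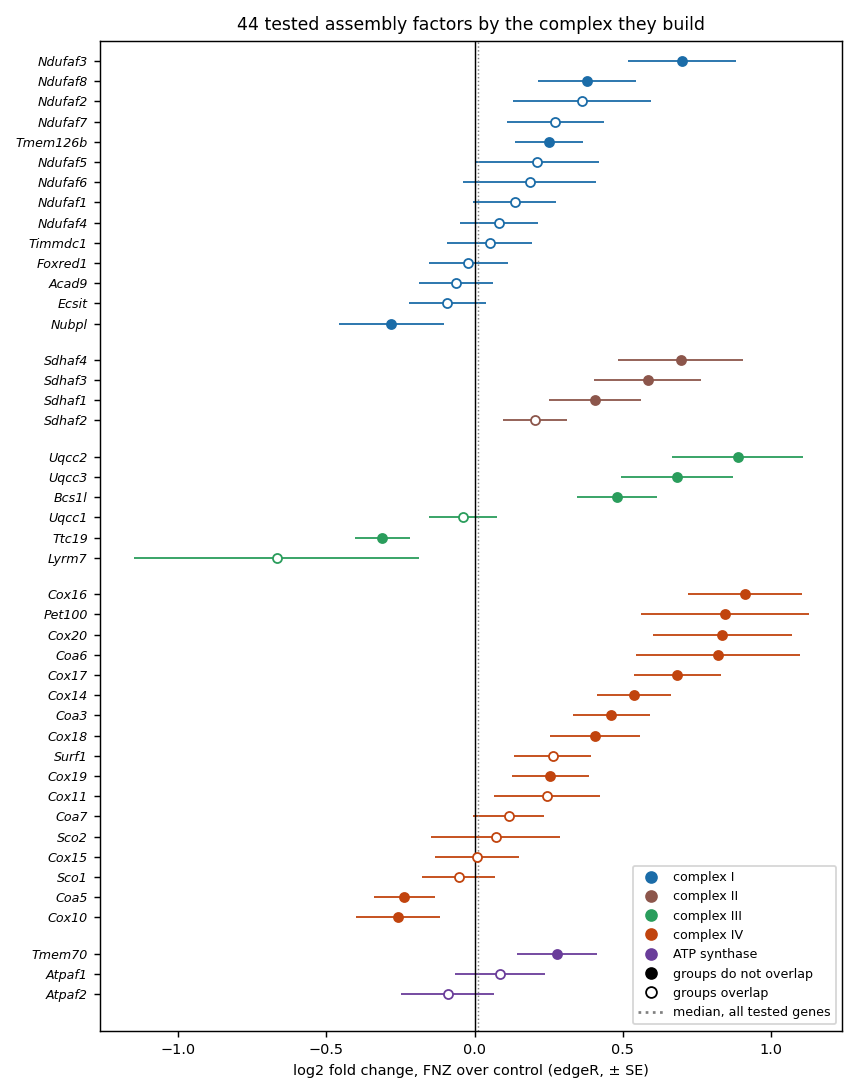
Log2 fold change of FNZ over control (x axis, edgeR, bars are SE) for the 44 tested assembly factors, grouped from top to bottom by the complex they build. Filled points mark genes whose FNZ libraries all lie on 1 side of all control libraries (19 to the right, 4 to the left), and the dotted line is the median of all tested genes at 0.011.

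The number of members that passed differed with the tool and with the libraries kept. DESeq2 called 8 higher and 0 lower, against 4.54% and 5.57% of the genes to which it gave an adjusted p, namely Ndufaf3, Sdhaf4, Uqcc2, Uqcc3, Cox14, Cox16, Cox17 and Cox20. The authors' deposited table, also from DESeq2, has an adjusted p under 0.05 for the same 8, among 1.16% of listed genes higher and 1.44% lower. Those shares are over all 56980 listed genes, 24519 of which had no count in any library. They stand for 662 and 822 genes, against 672 and 825 in the DESeq2 fit above. Without FNZ replicate 3, edgeR called 12 members higher and 2 lower (7.99% and 9.64% of all genes tested in that fit). The 12 were these 8 with Surf1, Coa3, Coa6 and Pet100, and the 2 were Ttc19 and Coa5. Leaving out any other single library gave 0 called members. FNZ replicate 3 is the FNZ library whose deviations were hardly related to gene length (Spearman's rho 0.082). With a correction for listed length (below), the edgeR fit without it called 1 member, Cox16, higher (1.7% of genes tested in that fit were called higher and 1.86% lower).

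Single libraries contributed unequally. The median deviation of the 44 members from their mean over the 6 libraries, on log2(CPM + 0.1), was 0.19, 0.044 and 0.13 in the FNZ libraries and -0.062, -0.019 and -0.22 in the control libraries. FNZ replicate 2 was the highest of the 6 libraries in 23 members, and control replicate 4 was the lowest in 25. The median log2 fold change of members was 0.18 without control replicate 4, 0.18 without FNZ replicate 2 and 0.25 without FNZ replicate 3. Separation is easier for every gene with a library fewer. Without FNZ replicate 3, 27 members were higher and 6 lower in all FNZ libraries, against 27.3% and 25.2% of genes tested in that fit. Without control replicate 4 there were 19 higher and 6 lower, against 20.3% and 18.5%. Summed over members, the level was 1201, 1070.1 and 1121 CPM in the FNZ libraries and 1009, 1019 and 909.6 CPM in the control libraries, so that these sums did not overlap.

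**Figure D2:**
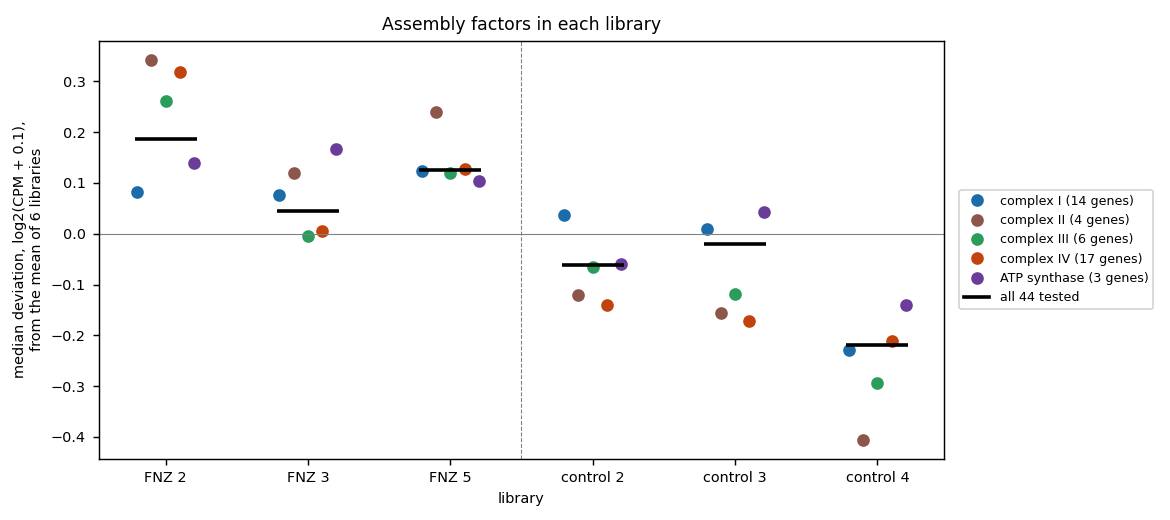
Median deviation of log2(CPM + 0.1) from the mean of the 6 libraries (y axis) for the factors of each complex (coloured points) and for all 44 tested members (bars), by library (x axis, FNZ on the left). Factors of complex II and IV reach 0.34 and 0.32 in FNZ replicate 2, and all members together are lowest in control replicate 4 at -0.22.

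Because the ovary was measured whole, a larger share of a cell type and more RNA per cell cannot be told apart. Several marker sums in CPM, which is not corrected for length, did not overlap between groups. Their part in the members' values was not tested. Among these, the 10 granulosa markers summed to between 6748 and 7378 CPM in FNZ and between 5620.1 and 6208 CPM in control libraries (8 of 10 positive). Sums of 8 theca and luteal markers ran from 4193 to 5911 CPM in FNZ and from 3576 to 4099.7 CPM in control libraries, although 4 of 7 tested markers were positive and 3 negative. In TPM, which divides by length, both sums overlapped between groups. Granulosa markers summed to 4561 to 5619 TPM in FNZ and 4803 to 4936 TPM in control libraries. For theca and luteal markers the ranges were 3140 to 5068 TPM and 3090 to 3573 TPM. Striated muscle markers were low throughout, at 2.83 to 4.09 CPM in FNZ and 1.53 to 2.15 CPM in control libraries (4 genes, 2 tested, both positive). All 10 macrophage markers had negative log2 fold changes, with overlapping sums (250.04 to 343 CPM in FNZ, 286 to 496.5 CPM in control). The sums of oocyte, stromal, endothelial, smooth muscle, adipocyte and blood markers overlapped between groups too. Log2 fold changes were positive in 5 of 5 smooth muscle, 9 of 10 oocyte, 3 of 6 stromal and 2 of 5 blood markers, and in 0 of 4 tested endothelial, 0 of 4 tested adipocyte and 1 of 6 oviduct markers. No marker of these lists was at 0 in all libraries.

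On the scale of TPM (transcript abundance, which divides by length and allows genes to be compared), assembly factors were of modest abundance. Their median over the mean of 6 libraries was 23.9 TPM, against 214.8 TPM for 75 nuclear-encoded subunits of the chain and 11.9 TPM for all tested genes. Only 8 members averaged above 50 TPM and 8 averaged below 10 TPM. The highest were Uqcc2 (178 TPM) and Cox17 (172 TPM), followed by Coa3 (97.0 TPM), Cox20 (94.2 TPM) and Cox16 (77.7 TPM). Uqcc2 and Cox17 could not be ordered, since their values overlapped in both groups, and the same was true of Coa3 and Cox20 in the FNZ libraries. The lowest were Nubpl (6.33 TPM), Sdhaf3 (3.08 TPM), Lyrm7 (1.48 TPM) and Pet117 (0.24 TPM).

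Complex I factors lay close to the controls. Of 14 members, 10 had a positive and 4 a negative log2 fold change, and the median was 0.16. Without overlap, 3 were higher and 1 lower, where 15.8% of all tested genes were higher and 13.8% lower. Their summed level was 276, 278 and 292 CPM in the FNZ libraries and 275, 269 and 242.5 CPM in the control libraries. Ndufaf3, which with Ndufaf4 holds the early quinone-binding module, measured 18.3, 13.8 and 12.8 CPM in the FNZ libraries, against 9.83, 9.17 and 8.61 CPM in the control libraries. All FNZ libraries stood above the controls (log2 fold change 0.70 ± 0.18, edgeR adjusted p = 0.132; DESeq2 adjusted p = 0.0254). Its partner Ndufaf4 had 29.9, 24.0 and 29.0 CPM in the FNZ libraries, against 26.4, 28.2 and 23.7 CPM in the control libraries, with groups that overlapped (log2 fold change 0.082 ± 0.13).

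Ndufaf8, a partner of the hydroxylase Ndufaf5, measured 9.94, 9.42 and 10.5 CPM in the FNZ libraries, against 8.04, 7.98 and 6.92 CPM in the control libraries. Its groups did not overlap (log2 fold change 0.38 ± 0.17 with an edgeR adjusted p of 0.219), whereas those of Ndufaf5 did (log2 fold change 0.21 ± 0.21). Tmem126b is a membrane protein of the assembly complex that builds the proton-pumping arm, together with Ndufaf1, Acad9 and Ecsit. It measured 23.5, 25.4 and 25.5 CPM in the FNZ libraries, against 22.5, 20.6 and 19.5 CPM in the control libraries, a narrow separation (log2 fold change 0.25 ± 0.11, edgeR adjusted p = 0.238) that was lost in TPM. Without a length correction the 3 partners of Tmem126b were at 0.14 for Ndufaf1, -0.063 for Acad9 and -0.092 for Ecsit, with groups that overlapped. With the correction for listed length (below), Ndufaf1 and Acad9 were at -0.017 and 0.035. Ecsit was then at -0.25 and lower in all FNZ libraries (edgeR adjusted p = 0.386), and at -0.23 with the implied length.

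Ndufaf2, a chaperone of the last steps, was the most abundant complex I factor in TPM and had 22.1, 12.6 and 16.8 CPM in the FNZ libraries, against 15.9, 12.6 and 11.5 CPM in the control libraries. FNZ replicate 3 lay inside the control range (log2 fold change 0.36 ± 0.23, edgeR adjusted p = 0.376). The log2 fold change was 0.15 without FNZ replicate 2. In Ndufaf2, 65.4% of the 25-base words of its transcripts also occur in B230220B15Rik, which is annotated on the opposite strand and had 7.64 to 22.2 counts per library. Nubpl, which delivers iron-sulphur clusters, had the lowest log2 fold change of the group and measured 7.75, 10.9 and 9.66 CPM in the FNZ libraries, against 11.6, 11.2 and 11.6 CPM in the control libraries. Every FNZ library was below every control library (log2 fold change -0.28 ± 0.18, edgeR adjusted p = 0.369), with a log2 fold change of -0.15 without FNZ replicate 2. The remaining complex I factors had log2 fold changes of 0.27 (Ndufaf7, a methyltransferase), 0.19 (Ndufaf6), 0.051 (Timmdc1, of the membrane arm) and -0.021 (Foxred1), and their groups overlapped.

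All 4 complex II factors had positive log2 fold changes, with a median of 0.49. Of these, 3 were higher without overlap between groups, as 15.8% of all tested genes were. Sdhaf4, which binds the catalytic subunit Sdha after its flavin is attached, measured 17.8, 13.4 and 16.1 CPM in the FNZ libraries, against 12.0, 9.65 and 7.54 CPM in the control libraries. The FNZ libraries were all above the controls, which themselves spread (log2 fold change 0.70 ± 0.21, edgeR adjusted p = 0.139; DESeq2 adjusted p = 0.0489). Sdhaf3, which with Sdhaf1 protects the iron-sulphur subunit Sdhb, had 10.6, 8.70 and 10.3 CPM in the FNZ libraries, against 6.89, 6.97 and 5.89 CPM in the control libraries. It was higher in all FNZ libraries (log2 fold change 0.58 ± 0.18, edgeR adjusted p = 0.140). The listed length of Sdhaf3 is 4323 bases. Sdhaf1 had a log2 fold change of 0.41 ± 0.16, with 69.3% of its words shared with E130208F15Rik on the opposite strand, a gene with 37.5 counts in control replicate 4 and 0 in the other 5 libraries. Sdhaf2, which attaches the flavin, measured 39.9, 35.0 and 38.3 CPM in the FNZ libraries, against 35.2, 32.5 and 30.5 CPM in the control libraries, and its groups overlapped (log2 fold change 0.20 ± 0.11, edgeR adjusted p = 0.295). The direction of Sdhaf2 turned with a correction for its listed length of 817 bases (log2 fold change -0.050) but not for the 1679 to 1826 bases that its deposited counts and TPM imply (0.087).

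Complex III factors had 3 positive and 3 negative log2 fold changes. Uqcc2, which with Uqcc1 receives newly made cytochrome b, measured 59.2, 37.5 and 40.7 CPM in the FNZ libraries, against 28.4, 27.0 and 18.9 CPM in the control libraries. Every FNZ library exceeded the controls (log2 fold change 0.89 ± 0.22, edgeR adjusted p = 0.131; DESeq2 adjusted p = 0.0101), although FNZ replicate 2 stood well above the other FNZ libraries. Per length, Uqcc2 measured 239, 209.8 and 202 TPM in the FNZ libraries, against 160.2, 151 and 108 TPM in the control libraries. Its partner Uqcc1 had 35.6, 35.4 and 35.0 CPM in the FNZ libraries, against 34.4, 41.2 and 33.2 CPM in the control libraries, with overlap and a log2 fold change of -0.038 ± 0.11. Uqcc3, which acts after them, measured 38.4, 24.0 and 29.8 CPM in the FNZ libraries, against 20.5, 20.4 and 16.5 CPM in the control libraries. These groups did not overlap (log2 fold change 0.68 ± 0.19, edgeR adjusted p = 0.133; DESeq2 adjusted p = 0.0316).

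The factors that handle the Rieske iron-sulphur protein of complex III differed in sign. Bcs1l, the ATPase that moves this protein across the inner membrane, measured 20.9, 19.2 and 20.6 CPM in the FNZ libraries, against 16.2, 14.3 and 13.0 CPM in the control libraries. It was higher in each FNZ library (log2 fold change 0.48 ± 0.14, edgeR adjusted p = 0.134; DESeq2 adjusted p = 0.0577). Ttc19, which clears fragments of the Rieske protein after its insertion, was the single member lower at an unadjusted p under 0.05 and was picked after its values were seen. Its level was 37.4, 40.5 and 37.5 CPM in the FNZ libraries, against 45.5, 48.4 and 49.3 CPM in the control libraries. All FNZ libraries were below the controls in CPM and in TPM (log2 fold change -0.31 ± 0.094, edgeR adjusted p = 0.138, or 0.0401 without FNZ replicate 3). With a correction for its listed length of 3410 bases the log2 fold change of Ttc19 was -0.23, still without overlap. That correction gave an edgeR adjusted p of 0.245 without FNZ replicate 3. Lyrm7, the chaperone that holds the Rieske protein in the matrix, was scarce, at 1.83, 0.799 and 1.31 CPM in the FNZ libraries, against 3.36, 1.54 and 1.34 CPM in the control libraries. Its groups overlapped in CPM (log2 fold change -0.67 ± 0.48, edgeR adjusted p = 0.428). Its fold change ranged from -0.97 without FNZ replicate 2 to -0.14 without control replicate 2. In the domain annotation of the deposited table, Lyrm7, Sdhaf1 and Sdhaf3 are the 3 members with the LYR family domain, and their log2 fold changes were -0.67, 0.41 and 0.58.

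Promoter windows of 300 bases (250 before and 50 after the gene's start, RefSeq, GRCm38.p6) matched 39 members by symbol. They were searched on both strands for motifs of factors known to act at genes of the respiratory chain. The NRF1 motif, which reads GCGCA, any base, then GCGC, occurred in 5 members (12.8%), against 9.98% of 12469 tested genes with a window, and these 5 (Ndufaf4, Ndufaf5, Sdhaf3, Sdhaf4 and Uqcc2) had a median log2 fold change of 0.58, against 0.20 for the 33 tested members with a window but no match. Members with the NRF1 motif were shorter (median 1166 against 1849 bases). An ETS motif, CCGGAAGT, occurred in 6 members (15.4%, against 7.92% of tested genes), and the YY1 motif, AAGATGGC, in 6 (15.4%, against 4.63%). Median log2 fold changes with and without a match were 0.27 and 0.23 for ETS and 0.32 and 0.21 for YY1. The shorter SP1 motif, GGGCGG, occurred in 82.1% of members and 64.3% of tested genes, and the ERR motif, TNAAGGTCA, in 0 of 39 members and 1% of tested genes. A match is a description of letters and does not show binding, and all shares rest on few members.

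The 3 windows below, 5' to 3', are those of the members named above for complex II and III that hold the NRF1 motif, which begins at -7, 8 and -48 relative to the start of Sdhaf3, Sdhaf4 and Uqcc2 (negative values lie before it). Capitals mark the NRF1 motif, and in Uqcc2 also a YY1 motif that begins at 11, close to the start, and does not overlap it. The windows lie at chr6:6955768-6956067, plus strand (Sdhaf3), chr1:24005591-24005890, minus strand (Sdhaf4) and chr17:27133842-27134141, minus strand (Uqcc2), in GRCm38.p6, a build other than the GRCm39 named in the submitters' processing notes.
Sdhaf3: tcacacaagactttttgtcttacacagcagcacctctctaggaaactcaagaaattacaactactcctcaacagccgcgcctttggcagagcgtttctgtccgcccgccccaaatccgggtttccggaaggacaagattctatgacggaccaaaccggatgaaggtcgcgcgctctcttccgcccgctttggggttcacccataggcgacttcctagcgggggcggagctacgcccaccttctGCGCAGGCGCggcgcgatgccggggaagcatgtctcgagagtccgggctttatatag
Sdhaf4: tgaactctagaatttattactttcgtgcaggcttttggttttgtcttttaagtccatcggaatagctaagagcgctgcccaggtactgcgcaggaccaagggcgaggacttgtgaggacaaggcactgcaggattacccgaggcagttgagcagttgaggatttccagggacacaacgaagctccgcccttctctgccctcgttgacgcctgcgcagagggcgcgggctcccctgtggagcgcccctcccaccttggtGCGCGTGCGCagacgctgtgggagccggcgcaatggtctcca
Uqcc2: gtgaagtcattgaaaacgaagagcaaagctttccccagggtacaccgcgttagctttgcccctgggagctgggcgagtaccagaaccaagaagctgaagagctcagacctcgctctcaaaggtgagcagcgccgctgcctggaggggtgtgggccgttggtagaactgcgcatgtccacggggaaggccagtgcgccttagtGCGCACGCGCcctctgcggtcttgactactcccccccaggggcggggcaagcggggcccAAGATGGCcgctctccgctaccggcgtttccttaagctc

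Complex IV factors included Cox16, the highest fold change of all members. Of 17 tested members 14 were positive and 3 negative, with a median log2 fold change of 0.26. Without overlap, 9 were higher and 2 lower, against 15.8% and 13.8% of all tested genes. Among 7 copper factors, 6 were positive. Cox17, the copper chaperone of the space between the membranes, was the most abundant complex IV factor and measured 59.9, 43.1 and 42.9 CPM in the FNZ libraries, against 29.7, 30.5 and 30.6 CPM in the control libraries. The 3 controls were almost equal and all FNZ libraries were above them (log2 fold change 0.68 ± 0.15, edgeR adjusted p = 0.131; DESeq2 adjusted p = 0.00799). Cox16, which helps deliver copper to the copper-bearing subunit mt-Co2, had 37.9, 23.4 and 31.7 CPM in the FNZ libraries, against 18.1, 16.8 and 14.5 CPM in the control libraries. Its groups were well apart (log2 fold change 0.91 ± 0.19, edgeR adjusted p = 0.131; DESeq2 adjusted p = 0.00371).

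Cox16 shares 55.5% of its words with Gm20498, an overlapping gene on the same strand, so that reads may be split between them. Counts of Gm20498 were 142, 130.4 and 159 in the FNZ libraries and 164, 122 and 109 in the control libraries (log2 fold change 0.32 ± 0.24, edgeR adjusted p = 0.439). The other copper factors had log2 fold changes of 0.82 ± 0.27 (Coa6), 0.26 (Cox19), 0.24 (Cox11, which inserts copper into mt-Co1), 0.071 (Sco2) and -0.053 (Sco1). Of these Coa6 and Cox19 did not overlap between groups. Cox11 shares 46.0% of its words with Tom1l1, a gene annotated on the opposite strand, so its value is uncertain. Tom1l1 had 1695 to 2950 counts per library and Cox11 193 to 241. The value of Sco2 is uncertain, since 90.2% of its words also occur in other genes. The largest share, 66.6%, is with Tymp, an overlapping gene on the same strand with 38.0 to 64.2 counts per library.

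Another 7 complex IV factors were listed neither with the copper nor with the heme factors, and some of them receive or insert core subunits. Of these 7, 6 were positive, with a median of 0.46. Cox14 and Coa3 bind mt-Co1 as it is made. Cox14 measured 55.7, 45.5 and 42.5 CPM in the FNZ libraries, against 33.8, 33.6 and 31.6 CPM in the control libraries, and all FNZ libraries exceeded the controls (log2 fold change 0.54 ± 0.12, edgeR adjusted p = 0.131; DESeq2 adjusted p = 0.0186). Coa3 had 41.3, 34.02 and 36.5 CPM in the FNZ libraries, against 30.2, 26.9 and 24.1 CPM in the control libraries, again without overlap (log2 fold change 0.46 ± 0.13). In TPM, however, FNZ replicate 5 was the lowest library for Coa3, at 123, 111 and 68.8 TPM in the FNZ libraries, against 90.8, 94.4 and 93.6 TPM in the control libraries. Cox20, a chaperone of mt-Co2, had 33.0, 16.9 and 22.8 CPM in the FNZ libraries, against 13.0, 13.6 and 14.1 CPM in the control libraries, and FNZ replicate 3 lay nearest the controls (log2 fold change 0.84 ± 0.23). Its value is uncertain, since 86.3% of its words occur in Hnrnpu, a gene annotated on the opposite strand with 16466 to 21024 counts per library (log2 fold change 0.025). Pet100, an inner-membrane factor, had a log2 fold change of 0.84 ± 0.28 with FNZ replicate 2 at 19.2 CPM and the other 5 libraries between 6.84 and 10.3 CPM. Cox18, which inserts mt-Co2 into the membrane, and Coa7 were at 0.41 and 0.12.

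Coa5, also needed for complex IV assembly, had a negative value. It had 83.9, 103 and 90.1 CPM in the FNZ libraries, against 113, 108 and 105 CPM in the control libraries, so that all FNZ libraries were lower (log2 fold change -0.24 ± 0.10, edgeR adjusted p = 0.219, or 0.0443 without FNZ replicate 3). With a correction for its listed length of 3863 bases the log2 fold change of Coa5 was -0.14, and its groups overlapped. That correction gave an edgeR adjusted p of 0.371 without FNZ replicate 3. With the length that counts and TPM imply, the log2 fold change was -0.092. Among the heme factors, Cox10, which makes heme O, had the lowest log2 fold change in complex IV and measured 16.7, 16.5 and 17.8 CPM in the FNZ libraries, against 19.5, 23.6 and 17.9 CPM in the control libraries. These groups did not overlap, by a small margin (log2 fold change -0.26 ± 0.14, edgeR adjusted p = 0.312). Without control replicate 3 the log2 fold change was -0.14. Cox15, which turns heme O into heme A, had a log2 fold change of 0.0069, and Surf1, which helps insert heme A, of 0.26, both with overlap. Pet117 was listed with 9.95 counts in control replicate 4 and at 0 in the other 5 libraries, and was not tested. All words of Pet117 also occur in Kat14, an overlapping gene on the same strand, so that reads of Pet117 and Kat14 cannot be told apart.

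**Figure D3:**
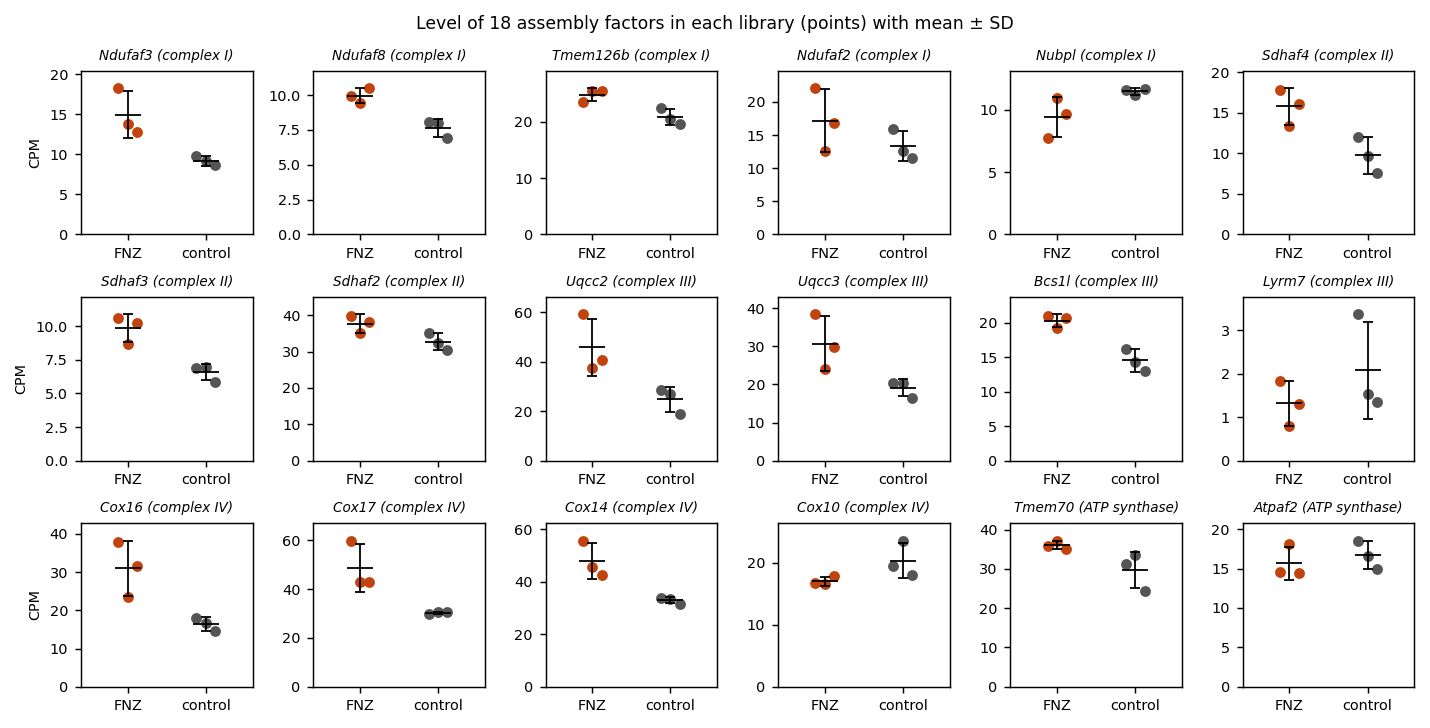
Level in CPM (y axis, from 0) of the 18 assembly factors named by rule, in FNZ libraries (left in each panel) and control libraries (right), with the mean and SD over 3 libraries. The FNZ libraries of Cox17 lie between 42.9 and 59.9 CPM, above all of its control libraries, while those of Nubpl and Cox10 lie below.

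ATP synthase factors had small fold changes. Tmem70, needed to build the ring of c subunits, measured 35.9, 37.2 and 35.1 CPM in the FNZ libraries, against 31.3, 33.4 and 24.5 CPM in the control libraries, with no overlap in CPM (log2 fold change 0.28 ± 0.13, edgeR adjusted p = 0.258). Without control replicate 4 that fold change was 0.15. Atpaf2, the chaperone of the alpha subunit, had 14.5, 18.1 and 14.4 CPM in the FNZ libraries, against 18.5, 16.6 and 15.0 CPM in the control libraries, with overlapping groups (log2 fold change -0.091 ± 0.16, edgeR adjusted p = 0.756). The fold change of Atpaf2 ran from -0.21 without FNZ replicate 3 to -0.011 without control replicate 2. Atpaf1, which holds the beta subunit, had a log2 fold change of 0.086 ± 0.15.

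Gene length ran through these values. Members are shorter than tested genes in general (median 1604.5 against 2705 bases), and across the 44 members the log2 fold change correlated with length at Spearman's rho = -0.54, against -0.42 across all 17735 tested genes. These are correlations across genes measured in the same libraries, given as a description. Among tested genes of at most 500 bases the median log2 fold change was 0.43, with 4 members at a median of 0.76. Between 2000 and 3000 bases the medians were 0.086 for 11 members and 0.049 for all tested genes. In all, 26 of 44 members were above the median of tested genes in their own length bin. With a loess correction for length, the median of members was 0.13 against 0.030 for all tested genes, 29 members were positive, and 15 were higher and 3 lower without overlap (34.1% and 6.82%, against 14.2% and 8.67% of tested genes). At an unadjusted p under 0.05 that fit had 10 members higher and 1 lower (9.62% and 6.7% of tested genes), and edgeR called 0 of them after adjustment (0.00564% of tested genes in each direction).

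The listed length did not always match the length that the deposited counts and TPM imply (CPM over TPM, scaled so that the median tested gene matched its listed length). The implied length was over 1.5 times the listed one in Sdhaf2 and under it by more than 1.5 times in 8 members (Acad9, Uqcc1, Uqcc2, Cox16, Cox19, Coa3, Coa7 and Pet100). Cox16, listed at 2007 bases, had an implied length of 449 to 513 bases in the 6 libraries. With the implied length in the correction, the members' median was 0.085 against 0.028 for all tested genes, and 28 members were positive. In that fit 14 members were higher and 1 lower without overlap, against 14.1% and 8.33% of tested genes.

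Fold changes of single members under the listed-length correction were as follows. The corrected log2 fold change was 0.82 for Cox16, 0.73 for Sdhaf3, 0.54 for Ndufaf3 (1487 bases) and 0.47 for Cox14 (2090 bases). It was 0.56 for Uqcc2 (500 bases), 0.38 for Cox17 (444 bases) and 0.12 for Ndufaf8 (427 bases). With the implied length it was 0.59 for Cox16, 0.73 for Sdhaf3, 0.53 for Ndufaf3, 0.44 for Cox14, 0.55 for Uqcc2, 0.36 for Cox17 and 0.10 for Ndufaf8. DESeq2 with the listed length called Cox14, Cox16, Sdhaf3 and Uqcc2 higher and no member lower (2.75% and 1.65% of genes with an adjusted p), with adjusted p of 0.0415, 0.00625, 0.0499 and 0.0496. With the implied length DESeq2 called Cox16 alone (adjusted p = 0.0173; 2.51% of genes higher and 1.48% lower), and edgeR called 0 members. Without FNZ replicate 3, edgeR called Cox16 alone with the listed length (adjusted p = 0.0254; 1.7% of genes higher and 1.86% lower). With the implied length it called 0 members (1.09% of genes higher and 1.32% lower), the adjusted p of Cox16 being 0.0653.

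**Figure D4:**
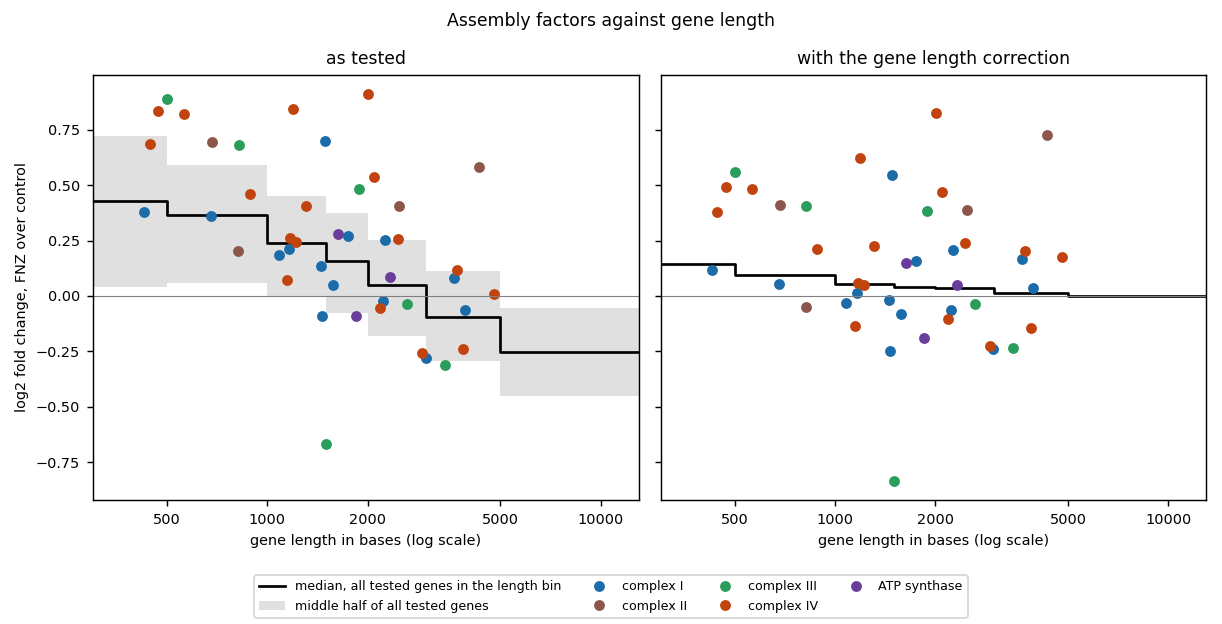
Log2 fold change of the 44 tested assembly factors (points, coloured by complex) against listed gene length in bases (log scale), as tested (left) and with the correction for that length (right). Cox16 stands at its listed length. The black line is the median of all tested genes in each length bin and the grey band in the left panel their quartiles, and the line falls from 0.43 in the shortest bin to -0.25 in the longest on the left.

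In TPM the whole comparison was shifted, since the median log2 fold change of tested genes on log2(TPM + 1) was -0.18 with limma. Relative to it, the members' median of 0.024 was still higher. In that unit 26 members were positive and 18 negative, and 11 were higher and 5 lower without overlap (25% and 11.4%, against 6.14% and 25.4% of tested genes). The 8 members that separated in CPM but overlapped in TPM were Tmem126b, Sdhaf1, Sdhaf3, Cox14, Cox18, Cox19, Coa3 and Tmem70. Members lower in TPM were Nubpl, Ttc19, Lyrm7, Cox10 and Coa5.

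Subunits of the same complexes are given for comparison, with no test of the difference. Of 75 tested nuclear subunits, 69 were positive, with a median log2 fold change of 0.45, or 0.20 after the length correction. By complex, the medians of factors and subunits were 0.16 and 0.54 for complex I, 0.49 and 0.16 for complex II, 0.22 and 0.32 for complex III, 0.26 and 0.48 for complex IV, and 0.086 and 0.36 for ATP synthase. The subunits are shorter, with a median of 763 bases, and the order of factors and subunits depended on length. Uncorrected factor medians were lower than subunit medians in all but complex II. With the listed-length correction they were 0.024 and 0.30 for complex I, 0.40 and -0.014 for complex II, 0.17 and 0.15 for complex III, 0.21 and 0.17 for complex IV, and 0.047 and 0.12 for ATP synthase, so that factors were higher in complexes II, III and IV. With the implied length, factors were at 0.065 and subunits at 0.13 in complex III, and both at 0.17 in complex IV. A further 21 genes of assembly outside the list, such as Coa4, Cmc1 and Smim20 of complex IV, had 20 positive values and a median of 0.39. Their median length was 992 bases, and with the listed-length correction 18 were positive, with a median of 0.18. The smallest edgeR p among them belonged to Tmem242, a factor of ATP synthase assembly (log2 fold change 0.55 ± 0.10, adjusted p = 0.131), and Coa8 (log2 fold change 0.41 ± 0.10, adjusted p = 0.131), and the negative value belonged to Taco1, which activates translation of mt-Co1 (-0.89 ± 0.30). Taco1 was picked after its value was seen.

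**Figure D5:**
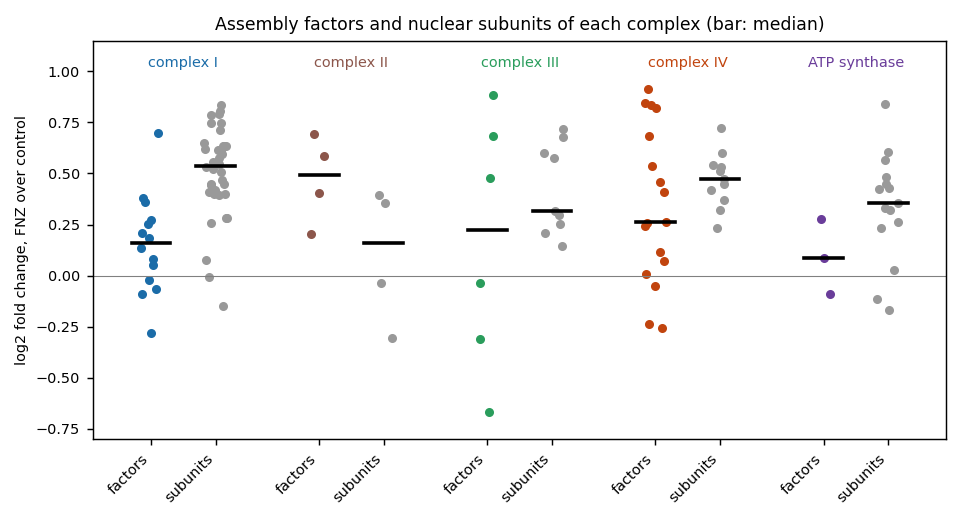
Log2 fold change of FNZ over control (y axis) for assembly factors (coloured) and nuclear-encoded subunits (grey) of each complex, with the median as a bar. Subunit medians range from 0.16 (complex II) to 0.54 (complex I), and the factors of complex III and IV reach 0.89 and 0.91.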

How the data were processed

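Poly(A) RNA was sequenced as paired-end reads, per the labels' protocols. Base calls came from bcl2fastq 2.20 and the authors' test from DESeq2 1.38.3 on GRCm39, per the submitters' processing notes, while no source used here names the aligner, the counting program or its strand setting. The authors deposited expected counts and TPM per library, a gene length in bases (how it was set is not stated), and, from their own test, each gene's p-value (raw and adjusted) with its log2 fold change. Their mean TPM columns were not used.

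After rounding of the expected counts, edgeR 4.0.16 in R 4.3.3 gave the main test (TMM, filterByExpr, robust quasi-likelihood F test, two-sided) over 17735 genes, with Benjamini-Hochberg adjustment. The plan named counts, and expected counts were treated alike. The SE is the size of the log2 fold change divided by the square root of its F. The length correction was an offset per library, the loess fit (span 0.3) of a gene's log2 CPM deviation against log2 length. DESeq2 1.42.0 and limma 3.58.1 were alternatives, as were other scalings and filters and each library left out in turn, and DESeq2 with the length correction was chosen after seeing the data. So was a correction by implied length (summed CPM over summed TPM, scaled to the listed length of the median gene). The scripts were tested on simulated data. Shared sequence was read from GENCODE M21 (GRCm38), where exons of 20 of 45 members overlap another gene (5 on the same strand, 16 on the opposite one), and 6 share over 50% of their 25-base words.

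Members and lists were chosen with earlier results of these data known. In each complex the text names the 3 members with the smallest edgeR p (2 for complex II and ATP synthase), the highest in mean TPM and the lowest in log2 fold change. Ndufaf4, Uqcc1 and partners were given beside named members, and Ttc19, Coa3, Coa5, Cox20 and Pet100 were picked after their values were seen. Other members are given by counts, ranges or short clauses. Outside lists are given with values for at most 2 genes, apart from Taco1, which was picked after its value was seen. Title numbers 2 and 3 occur in both groups, but nothing states that they pair samples.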

Additional observations from a re-analysis of the deposited data

How the results depend on the processing

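The scarcest members were Lyrm7 (0.799 to 3.36 CPM) and Pet117 (counts in 1 library). No gene was called with RLE or upper quartile scaling or the 1 CPM filter, as in the edgeR test itself. Called genes numbered 1497 with DESeq2, 628 with DESeq2 and the length correction, 2 with limma voom, 1 and 4 with limma on log2(TPM + 1) and log2(TPM + 0.1), 183 with no filter, 2 with the listed-length correction and 653 with it and without FNZ replicate 3. With the implied length these were 2 and 442, and 570 with DESeq2. Leaving out each library gave 0 to 3230 genes, the highest without FNZ replicate 3. Called members numbered 8 with DESeq2, 4 with DESeq2 and the length correction, 2 with no filter, 1 with the length correction and without FNZ replicate 3 and 1 with DESeq2 and the implied length, and 0 to 14 when each library was left out. The other alternatives called 0 members. The cause was not tested.

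The members' median log2 fold change was 0.024 and 0.025 in TPM (pseudocounts 1 and 0.1), 0.13 with the length correction in edgeR and in DESeq2, 0.14 with the correction and without FNZ replicate 3, 0.085 with the implied length in edgeR and in DESeq2, 0.11 with the implied length and without FNZ replicate 3, and 0.18 to 0.26 with each library left out. Members without overlap numbered 15 with the implied length, against 23.

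With the title number as a replicate block, edgeR called 24 genes and 0 members (median 0.16). With the block and the length correction it called 3 genes and 0 members, with a median of -0.020. Only numbers 2 and 3 occur in both groups. In these block fits FNZ replicate 5 and control replicate 4 each form a block alone and do not bear on the group difference. Deviations from group means correlated at -0.087 and -0.15 between libraries numbered 2 and 3, so the numbers were not taken to pair samples.

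For the 18 named members under 22 alternatives, 366 values kept their direction and their side of the threshold, 22 passed it and 8 reversed. Sdhaf2 reversed to -0.049 and -0.051 in TPM, -0.050 and -0.051 with the listed-length correction in edgeR and DESeq2, -0.075 with it and without FNZ replicate 3, and -0.13 with it and the replicate block. That last fit also gave -0.048 for Ndufaf8 and -0.064 for Ndufaf2.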

Other observations

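The deposited counts and TPM of some assembly factors imply different transcript lengths in different libraries. The ratio of CPM to TPM, scaled in each library so that the median tested gene matched its listed length, was over 1.5 times apart between the highest and the lowest library in 5 of 44 members (Lyrm7, Coa7, Coa3, Acad9 and Ndufaf6, named after their values were seen). For Lyrm7 the implied length was 2939.7, 2551 and 2321 bases in the FNZ libraries and 3825, 613 and 2530.5 bases in the control libraries. Control replicate 3, with 1.54 CPM and 4.29 TPM, therefore lies inside the range of the other libraries by count and above all of them by TPM. For Coa7, which binds heme in complex IV assembly, it was 1149, 1629.5 and 2958 bases in the FNZ libraries and 1301, 1694 and 2012 bases in the control libraries. The counts of Coa7 stayed between 22.2 and 28.9 CPM while its TPM ran from 12.6 in FNZ replicate 5 to 33.8 in control replicate 2. Acad9, an acyl-CoA dehydrogenase that doubles as a complex I factor, had 1689, 2328 and 2014 bases in the FNZ libraries and 2794, 2432 and 2609 bases in the control libraries. Coa3 had 442, 497 and 754 bases in the FNZ libraries and 573, 489 and 452 bases in the control libraries, which goes with its low TPM in FNZ replicate 5. No source used here says how the authors divided reads among transcripts, and whether transcript forms differed was not tested.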
